A study of Rattus norvegicus with 12 samples.

Results

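The growth hormone and insulin-like growth factor (IGF) axis was followed through 10 genes in the rat mammary gland. They were the ligands Igf1 and Igf2, the receptors Igf1r, Igf2r and Ghr, and the binding proteins Igfbp2, Igfbp3, Igfbp4, Igfbp5 and Igfbp6. Members were taken by gene symbol from the platform annotation, and all 10 were found, on 24 of the 20826 probe sets that carry 1 gene. A gene with several probe sets, as 8 members had, was given their mean. The 10 members are part of 14217 genes tested.

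Abdominal mammary glands were taken on postnatal day 64 from female rats of the Sprague-Dawley strain. There were 4 groups of 3 RNA pools. Casein plus E2 rats ate casein and received estradiol (E2) from a mini-osmotic pump, and casein rats ate casein without E2. Soy plus E2 and soy rats ate soy protein isolate with and without the same hormone. Diets began on day 30, every rat of the 4 groups was ovariectomized on day 50, and E2 lasted 14 days. The sources used here do not give the E2 dose, the number of animals in a pool or whether a group's pools held different animals. The p-values therefore cover pool-to-pool spread, which may be technical.

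Growth hormone from the pituitary acts through its receptor, Ghr, and the transcription factors Stat5a and Stat5b, and it is a main driver of Igf1 transcription. Igf1 and Igf2 signal through the kinase receptor Igf1r, while Igf2r binds Igf2 and takes it up for breakdown. The binding proteins hold the ligands in blood and tissue and set how much of them reaches the receptor. In the rodent mammary gland Igf1 is made largely by the stroma and acts on the ducts together with estrogen.

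Values were read as log2 and are centred on each probe set's median over the 12 arrays, so they show differences between arrays and no expression level. No member can be ranked against another by level, and the labelled tissue could not be checked by level either. Casein plus E2 pools 2 and 3 were nearly 1 array (SD of their difference 0.163, against 0.301 or more in the other 65 pairs). They were averaged into 1 sample, which gives n = 2 for casein plus E2, n = 3 elsewhere and 11 samples. No member differed by more than 0.153 between those 2 arrays.

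Casein pool 3 carried liver transcripts. Its mean over 23 liver genes was 5.22, against 0.225 or less on every other array, with Fabp1 at 8.01 and Ahsg at 7.50. Liver is the main source of circulating IGF proteins, so its members are flagged here. Igfals, the liver-made subunit of the circulating IGF complex, stood at 2.34 there and at most 0.287 elsewhere. Igfbp1, a liver binding protein, stood at 0.94 there and at most 0.237 elsewhere. The 10 members were not extreme on that array. Igf1 stood at 0.50, between casein pools 1 and 2 at 0.14 and 0.64, and Ghr at 0.055 was the lowest of the casein pools. Igfbp3 at 0.78 was the highest casein pool, and soy pools 1 and 3 lay higher still.

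With E2 the axis shifted toward less Igf1, Igfbp3 and Ghr and more Igfbp2. Averaged over both diets, Igf1 was lower by 1.52 (log2 difference -1.52 ± 0.28 SE), which is a 2.87-fold lower value. Igfbp3 was 3.25-fold lower and Ghr 2.23-fold lower, while Igfbp2 was 1.94-fold higher. These 4 of 10 members passed the test in limma (adjusted p under 0.05), 3 lower and 1 higher, where 12.2% of all genes passed, 5.51% of them lower and 6.73% higher as shares of all genes. The other 6 did not pass, with differences between -0.20 and 0.26. The median difference of the 10 members was -0.043, against 0.0042 over all genes. Since the RNA was of whole gland, fewer cells of a type and less RNA per cell cannot be told apart.

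**Figure D1:**
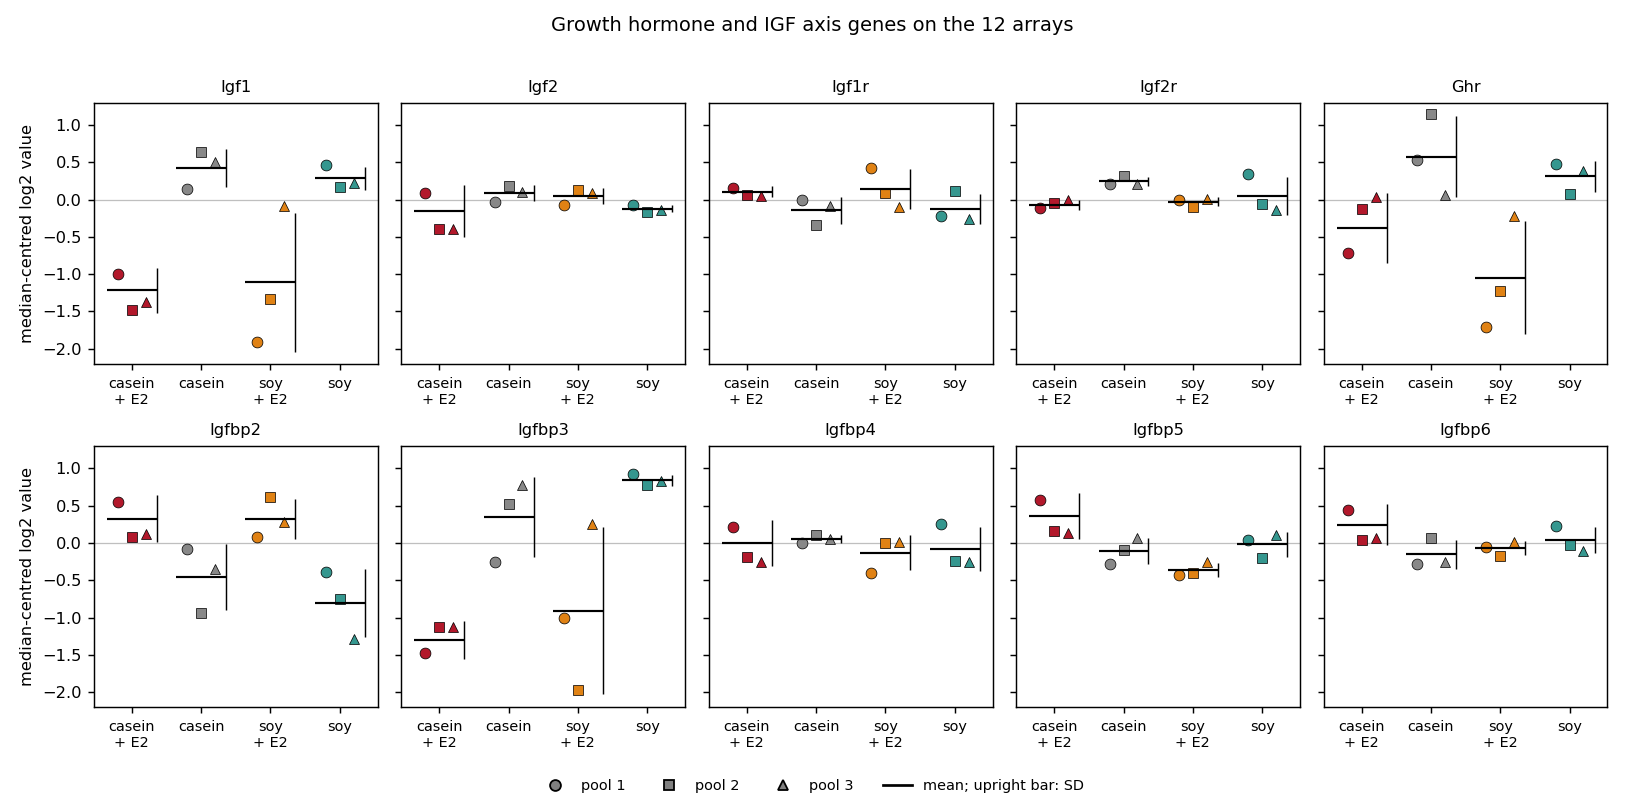
Median-centred log2 value (y axis) of each axis gene on the 12 arrays in the 4 groups. Marker shape gives the pool, the horizontal line the mean and the upright bar the SD, with casein plus E2 pools 2 and 3 averaged first. Igf1 and Igfbp3 were low in casein plus E2 and in soy plus E2 pools 1 and 2, while soy plus E2 pool 3 stood at -0.084 for Igf1 and 0.26 for Igfbp3.

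The ligand Igf1 was low in 4 of the 5 samples with E2. It stood at -1.0 in pool 1 and -1.43 in the averaged pools 2 and 3 of casein plus E2, against 0.14, 0.64 and 0.50 in casein pools 1 to 3. In soy plus E2 pools 1 to 3 it stood at -1.91, -1.34 and -0.084, against 0.46, 0.16 and 0.23 in soy. The groups did not overlap in either diet, and soy plus E2 pool 3 lay closest to the pools without E2. All 3 Igf1 probe sets passed for the E2 average, with differences of -1.41, -1.62 and -1.53. Over diets the adjusted p was 0.0149 in limma. It was 0.0511 without casein plus E2 pool 1 and 0.0631 without pools 2 and 3 of that group, each of which leaves 1 sample there. Without casein pool 3, the array with liver transcripts, the difference was -1.50 and passed.

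Taken by diet, Igf1 was lower by 1.64 with E2 in casein-fed rats (-1.64 ± 0.42 SE, limma adjusted p = 0.0746) and by 1.39 in soy-fed rats (-1.39 ± 0.38 SE, adjusted p = 0.113). Neither passed, and no other member passed within a diet, where 2.43% of all genes passed in casein-fed and 0.218% in soy-fed rats. Without soy plus E2 pool 3 the soy difference of Igf1 was -1.91 and passed (limma adjusted p = 0.00561), as did Igfbp3 at -2.33 and Ghr at -1.77. Over all genes 760 passed on soy in that setting, against 31 with all samples. No member passed on soy when any other array was left out. In casein-fed rats, Igf1 and Igfbp3 passed without soy plus E2 pool 3 (limma adjusted p = 0.00955 and 0.0357), where 590 of all genes passed, against 346. Igf1 passed there without soy plus E2 pool 1 (0.0439), where 359 of all genes passed. Leaving out a soy plus E2 pool does not change the casein differences, -1.64 for Igf1 and -1.65 for Igfbp3. What changes is the spread estimated over the 4 groups. At an unadjusted p under 0.05 the counts were 6 of 10 members and 19.6% of all genes in casein-fed rats, and 5 of 10 and 20.6% in soy-fed rats. Groups did not overlap for 7 of 10 members in casein-fed rats, against 39.8% of all genes, and for 5 of 10 in soy-fed rats, against 24.6%.

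Igf2, the second ligand, did not pass, and its probe sets behaved differently. Its difference for the E2 average was -0.035 ± 0.095 SE (95% interval -0.25 to 0.18). Of its 4 probe sets, 1371206_a_at, 1388252_at and 1398322_at stayed between -0.25 and 0.30 on all arrays. Probe set 1367571_a_at, designed on the RefSeq transcript, spread widely. It stood at 0.11, -1.52 and -1.44 in casein plus E2 pools 1 to 3, against -0.056, 0.55 and 0.45 in casein. Soy plus E2 pools stood at -0.68, 0.14 and 0.61, against 0.056, -0.38 and -0.67 in soy. In both diets the E2 pools spread widely and overlapped those without E2, and the mean over 4 probe sets shows less of this spread. H19, the imprinted RNA gene next to Igf2, did not pass either (-0.28 for the E2 average, adjusted p = 0.469).

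Of the receptors, Ghr moved and Igf1r and Igf2r did not pass. Ghr stood at -0.71 in pool 1 and -0.047 in the averaged pools of casein plus E2, against 0.53, 1.14 and 0.055 in casein pools 1 to 3. In soy plus E2 pools 1 to 3 it stood at -1.71, -1.22 and -0.22, against 0.47, 0.078 and 0.38 in soy. As the mean of its probe sets, all samples with E2 were below all samples without it. The nearest were the averaged casein plus E2 pools and casein pool 3. On probe set 1368924_at alone these 2 overlapped, at -0.0395 and -0.043, while 1373803_a_at did not overlap. The E2 average was -1.16 ± 0.29 SE (limma adjusted p = 0.0322), and both probe sets passed at -1.18 and -1.14. This call was lost without any single one of casein pools 1 or 2, casein plus E2 pool 1 or its averaged pools, the 3 soy pools, or soy plus E2 pools 1 or 2, with adjusted p between 0.0507 and 0.132. Its differences there lay between -1.32 and -0.99.

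Igf1r, the signalling receptor, had an E2 average of 0.26 ± 0.12 SE (limma adjusted p = 0.183, 95% interval -0.0064 to 0.52). Its highest sample was soy plus E2 pool 1 at 0.42 and its lowest was casein pool 2 at -0.35. Its 2 probe sets disagreed in size, 0.44 for 1368123_at and 0.068 for 1392492_at, and neither passed. Igf2r, which clears Igf2, had an E2 average of -0.20 ± 0.090 SE (adjusted p = 0.186). In casein-fed rats its values were -0.12 and -0.025 with E2, against 0.21, 0.31 and 0.21 without. In soy-fed rats they were -0.0057, -0.099 and 0.011 with E2, against 0.34, -0.063 and -0.14 without, and these overlapped.

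The binding proteins went different ways. Igfbp3, the main carrier of IGF in blood, fell with E2, and Igfbp2 rose. Igfbp3 stood at -1.48 in pool 1 and -1.12 in the averaged pools of casein plus E2, against -0.26, 0.52 and 0.78 in casein pools 1 to 3. In soy plus E2 pools 1 to 3 it stood at -1.01, -1.97 and 0.26, against 0.92, 0.77 and 0.83 in soy. The groups did not overlap within a diet, but soy plus E2 pool 3 lay above casein pool 1. The E2 average was -1.70 ± 0.35 SE (limma adjusted p = 0.02), with its 2 probe sets at -1.62 and -1.77. The adjusted p was 0.0798 without casein plus E2 pool 1, 0.0625 without its averaged pools and 0.0515 without soy plus E2 pool 1, and the difference was -1.59 without casein pool 3.

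Igfbp2, a binding protein made in many tissues, stood at 0.55 in pool 1 and 0.10 in the averaged pools of casein plus E2, against -0.076, -0.94 and -0.35 in casein pools 1 to 3. In soy plus E2 pools 1 to 3 it stood at 0.076, 0.61 and 0.28, against -0.39, -0.75 and -1.29 in soy. All 5 samples with E2 were above all 6 without it, soy plus E2 pool 3 included. By gene means this held for 3 of 10 members (Igf1 and Ghr on the lower side), where 6.88% of all genes had no overlap in this comparison. For Ghr it did not hold on 1 probe set. The E2 average was 0.96 ± 0.21 SE (limma adjusted p = 0.0227), from 1 probe set. The adjusted p was 0.0949 without casein plus E2 pool 1, 0.0566 without its averaged pools and 0.0581 without soy plus E2 pool 2. The difference was 0.98 and passed when casein pool 3 was left out.

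Igfbp4, a binding protein that inhibits IGF action, had an E2 average of -0.052 ± 0.13 SE (95% interval -0.35 to 0.24). Igfbp6, which prefers Igf2, had 0.15 ± 0.11 SE, and Igfbp5 had 0.063 ± 0.11 SE. None of the 3 passed. Igfbp5, which takes part in involution of the rodent gland, had an average near 0, and its differences had opposite signs in the 2 diets, as described further on.

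**Figure D2:**
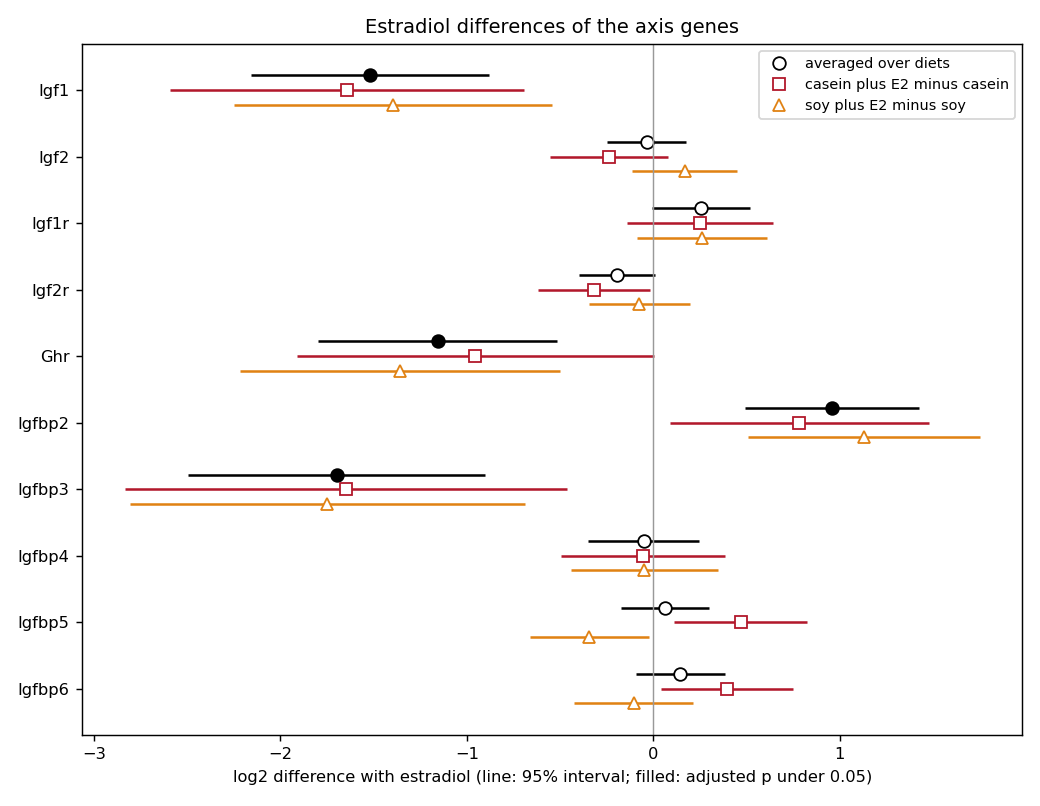
Log2 difference with E2 (x axis) of each axis gene, for casein plus E2 minus casein, for soy plus E2 minus soy and for their average, with 95% intervals from limma. Filled markers passed at an adjusted p under 0.05. Igf1, Ghr and Igfbp3 lie below 0 and Igfbp2 above 0 in both diets, and Igfbp5 lies on opposite sides of 0.

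The bases upstream of the annotated starts are given for these 4 members because their values changed with E2. RefSeq promoter windows of the rat build GRCr8 matched all 10 members, and the 250 bases before the start were searched on both strands. The Igf1 window is chr7:24172282-24172531 (plus strand) and lies inside the annotated gene. The Igfbp3 window is chr14:86277945-86278194 (minus strand). The Ghr window is chr2:54432076-54432325 (minus strand) and also lies inside the annotated gene. The Igfbp2 window is chr9:81864561-81864810 (plus strand). Capitals mark a match to the GC box GGGCGG, the 1 searched motif found in these 4 windows:
Igf1: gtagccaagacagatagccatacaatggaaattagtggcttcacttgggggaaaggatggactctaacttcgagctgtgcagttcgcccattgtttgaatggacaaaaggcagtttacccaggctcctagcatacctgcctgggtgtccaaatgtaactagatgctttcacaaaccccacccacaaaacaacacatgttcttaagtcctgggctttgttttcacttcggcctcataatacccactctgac
Igfbp3: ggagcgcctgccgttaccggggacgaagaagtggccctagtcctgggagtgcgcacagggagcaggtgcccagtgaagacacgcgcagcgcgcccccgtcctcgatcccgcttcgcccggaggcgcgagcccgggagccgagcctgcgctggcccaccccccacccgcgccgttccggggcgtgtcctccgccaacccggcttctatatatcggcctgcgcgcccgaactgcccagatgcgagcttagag
Ghr: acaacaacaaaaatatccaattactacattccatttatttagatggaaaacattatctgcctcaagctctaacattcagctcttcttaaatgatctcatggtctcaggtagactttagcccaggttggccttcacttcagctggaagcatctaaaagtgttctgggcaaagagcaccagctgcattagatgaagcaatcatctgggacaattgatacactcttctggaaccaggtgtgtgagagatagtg
Igfbp2: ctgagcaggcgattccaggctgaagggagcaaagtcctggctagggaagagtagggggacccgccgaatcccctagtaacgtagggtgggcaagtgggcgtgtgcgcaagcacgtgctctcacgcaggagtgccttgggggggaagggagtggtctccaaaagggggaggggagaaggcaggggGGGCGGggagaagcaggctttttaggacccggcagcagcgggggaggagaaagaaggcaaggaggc

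The 4 windows differed in base composition, with 46.8% G and C for Igf1, 71.6% for Igfbp3, 40.8% for Ghr and 64.0% for Igfbp2, against a median of 51.2% over 33469 windows. The estrogen response element GGTCANNNTGACC was in none of the 4 and in 0.0239% of all windows. The STAT element TTCNNNGAA was in none of the 4 and in 7.67% of all windows, the nuclear receptor half-site AGGTCA in none and in 14.1%, and the TATA box TATAAA in none and in 12.9%. The GC box was in Igfbp2 and in 30.5% of all windows. A half-site match can lie inside a longer element on the same bases. Missing letters in such a short window say nothing about a factor's binding elsewhere at the gene.

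Diet changed no member past the test. For soy against casein without E2 the 10 members lay between -0.35 and 0.49 and none passed, as was true of all 14217 genes (0% passed, limma, smallest adjusted p = 0.373). At an unadjusted p under 0.05 the counts were 0 of 10 members and 10.4% of all genes. Groups did not overlap for 1 of 10 members, Igf2 (lower in soy), against 13.3% of all genes. This was for the mean of its 4 probe sets, and each of them overlapped on its own. The lowest casein value of that mean was -0.0275 and the highest soy value -0.0683. Igf1 differed by -0.14 (95% interval -0.99 to 0.71), Igfbp2 by -0.35 (-0.97 to 0.27), Igfbp3 by 0.49 (-0.57 to 1.56) and Ghr by -0.27 (-1.12 to 0.59). Each of these intervals spans 0.

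With E2 present, soy plus E2 against casein plus E2 again changed no member past the test, where 0.00703% of all genes passed. Igf1 differed by 0.10 (95% interval -0.85 to 1.06), Igfbp2 by -0.0037 (-0.70 to 0.69), Igfbp3 by 0.40 (-0.79 to 1.58) and Ghr by -0.67 (-1.63 to 0.29). The member with the smallest p was Igfbp5, with a difference of -0.72 (-1.08 to -0.37, limma adjusted p = 0.455). It stood at -0.43, -0.40 and -0.26 in soy plus E2 pools 1 to 3, against 0.58 in pool 1 and 0.14 in the averaged pools of casein plus E2. Groups did not overlap for 2 of 10 members, Igfbp5 and Igfbp6, against 23.3% of all genes, and 1 of 10 had an unadjusted p under 0.05, against 5.1%. For Igfbp6 the groups overlapped on probe set 1372168_s_at and not on 1387625_at. As the mean of its probe sets, its highest soy plus E2 value was 0.0079 and its lowest casein plus E2 value 0.049.

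Whether the response to E2 differed between diets was tested as an interaction, and no member passed it, nor did any other gene (0% of 14217, limma). For the 4 members that moved with E2 the difference of differences, soy-fed minus casein-fed, was 0.25 for Igf1 (95% interval -1.03 to 1.52), 0.35 for Igfbp2 (-0.59 to 1.28), -0.099 for Igfbp3 (-1.69 to 1.49) and -0.40 for Ghr (-1.69 to 0.88). These intervals do not show that the diets were alike. At an unadjusted p under 0.05 the members were Igfbp5 and Igfbp6, 2 of 10, against 6.53% of all genes.

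Igfbp5 was higher with E2 on casein and lower with E2 on soy in these pools. In casein-fed rats it stood at 0.58 and 0.14 with E2, against -0.29, -0.092 and 0.064 without, a difference of 0.47 ± 0.16 SE (limma adjusted p = 0.142). In soy-fed rats the E2 pools given above stood against 0.046, -0.21 and 0.11 in soy, a difference of -0.34 ± 0.14 SE (adjusted p = 0.212). The interaction was -0.81 ± 0.21 SE (adjusted p = 0.544). The 5 probe sets of Igfbp5 shared the sign of the interaction and differed in size, with -1.26 for 1396152_s_at and -1.23 for 1397830_at, both designed on the same sequence, -0.91 for 1387347_at, -0.45 for 1387348_at and -0.20 for 1370960_at. Casein plus E2 pool 1 stood at 0.74 and 0.67 on the probe pair of the shared sequence, where pools 2 and 3 lay between -0.050 and 0.0031. Without that pool the interaction was -0.59. Igfbp6 had an interaction of -0.50 ± 0.21 SE (adjusted p = 0.754), and it too was highest in casein plus E2 pool 1, at 0.44.

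**Figure D3:**
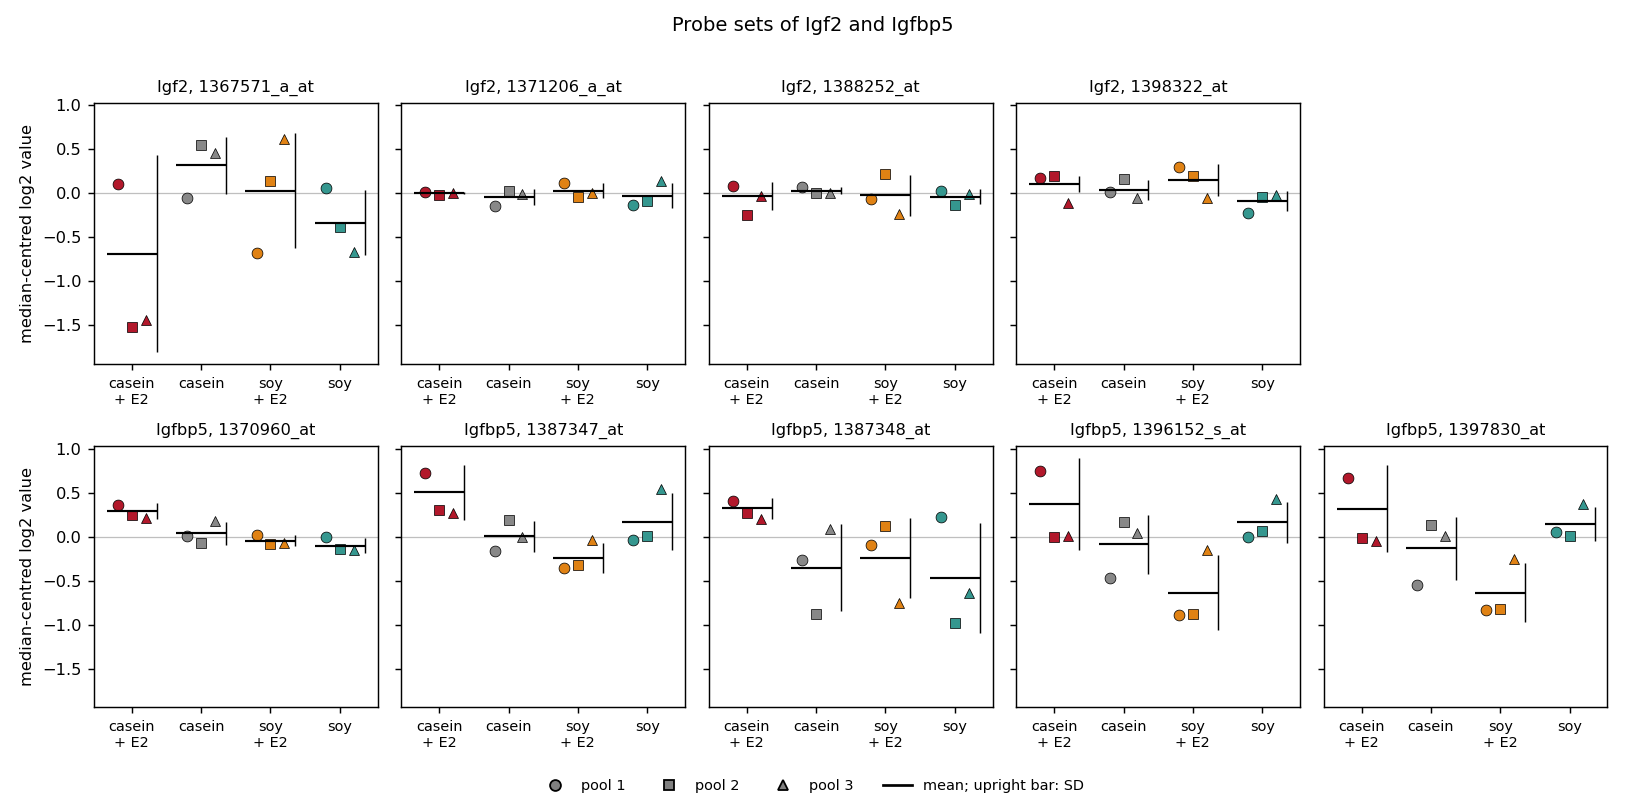
Median-centred log2 value (y axis) of each probe set of Igf2 (top) and Igfbp5 (bottom) on the 12 arrays in the 4 groups. Marker shape gives the pool, the horizontal line the mean and the upright bar the SD, with casein plus E2 pools 2 and 3 averaged first. One of the 4 Igf2 probe sets ranges from -1.52 to 0.61 while the others stay near 0, and 2 Igfbp5 probe sets designed on the same sequence share their pattern.

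Some cell type marker lists moved alongside the 4 members and others did not. Over all genes 5.51% were lower and 6.73% higher with E2. Adipocyte genes, whose fat cells fill most of the rodent gland, were lower with E2 for 11 of 19 and higher for 0, and stromal fibroblast genes were lower for 10 of 20 and higher for 0. Of 20 luminal epithelium genes 11 were higher and 1 lower, and of 18 basal and myoepithelial genes 6 were higher and 1 lower. The median differences were -0.96, -0.42, 0.93 and 0.39 in that order, against 0.0042 over all genes. Endothelial genes were lower for 6 of 15 and higher for 0. Of 14 macrophage genes 1 was higher and 1 lower, and of 15 lymphocyte genes 0 were higher or lower. The adipocyte list averaged between -0.885 and -0.331 in casein plus E2, against -0.038 to 0.868 in casein. It averaged between -1.29 and 0.056 in soy plus E2, against -0.013 to 0.576 in soy. Skeletal muscle genes stood apart too, with averages of 1.44 and 3.05 in casein pools 1 and 2 and 3.18 in soy pool 2. These are arrays without E2, and the other arrays without it lay between -0.832 and 0.301. Arrays with E2 lay between -0.894 and 0.474, and casein plus E2 pools 2 and 3, at 0.416 and 0.474, were above those other arrays. The median E2 difference of the muscle list was -1.69, and 0 of 20 genes passed. These values carry no zero, so no marker can be said to be absent, and the part of these cells in the results on Igf1, Igfbp3, Ghr and Igfbp2 was not tested.

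Soy plus E2 pool 3 was the array with E2 that lay nearest to the arrays without it for Igf1 and Igfbp3. Igf1 stood at -0.084, Ghr at -0.22 and Igfbp3 at 0.26 there, and the adipocyte list averaged 0.056, the stromal fibroblast list 0.094 and the luminal list -0.023. Soy plus E2 pool 1, with the lowest Igf1 and Ghr of all arrays, had the lowest adipocyte average, -1.29. In soy plus E2 pool 2, with the lowest Igfbp3 and the highest Igfbp2, that list averaged -0.829 and the luminal list 0.338. Casein plus E2 pools 2 and 3 had Ghr near 0 at -0.12 and 0.030 and adipocyte averages of -0.322 and -0.339, while Igf1 was as low as -1.49 and -1.37. In casein plus E2 pool 1 the stromal fibroblast list averaged -0.01 and the adipocyte list -0.885, while Igf1 stood at -1.0 and Igfbp3 at -1.48.

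**Figure D4:**
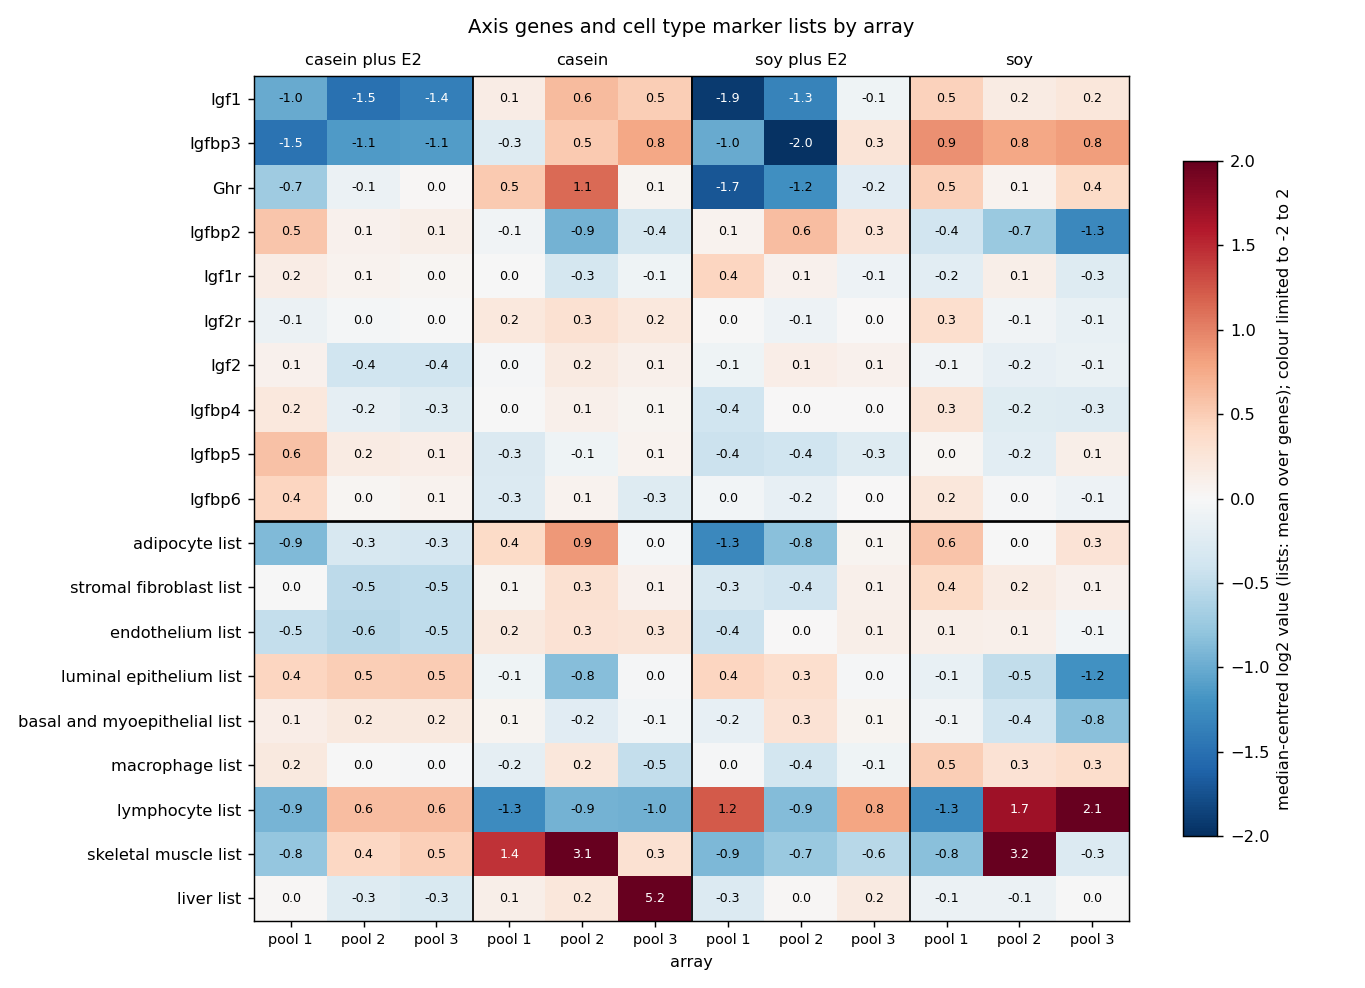
Median-centred log2 values of the 10 axis genes (top) and mean values of 9 cell type marker lists (bottom) on each array, with the number in each cell and colour from blue (low) to red (high), limited to 2 in either direction. The Igf1 and Igfbp3 rows are clearly blue on every array with E2 except soy plus E2 pool 3, the adipocyte row is pale blue in casein plus E2 pools 2 and 3 (-0.322 and -0.339), while the liver row is deep red in casein pool 3 alone.

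Bacterial transcripts added at hybridisation were above 0 on 6 arrays and below 0 on the other 6, and the E2 difference was taken within each set. Within the high arrays (2 samples with E2, 4 without) Igf1 differed by -1.61, Igfbp3 by -2.22, Ghr by -1.51 and Igfbp2 by 1.02. Within the low arrays (3 with E2, 2 without) they differed by -1.34, -1.43, -0.886 and 1.17. The direction was the same in both sets for these 4. Diets are not balanced between the sets, and the low arrays without E2 were soy pools 2 and 3 only. The split therefore does not test an array effect apart from diet.

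Other genes of the axis were read from 3 lists against the 6.73% of all genes that were higher and the 5.51% that were lower with E2. In the growth hormone signalling list of 14 genes 3 rose and 0 fell, with a median difference of 0.049. Stat5a rose by 1.12 ± 0.14 SE (limma adjusted p = 0.00487), Stat5b by 0.53 ± 0.11 SE and the kinase gene Jak2, which the hormone's receptor activates, by 0.48 ± 0.13 SE. Stat5a stood at 1.13 and 1.04 in casein plus E2, against -0.19, -0.43 and -0.088 in casein. Soy plus E2 pools stood at 0.83, 0.76 and 0.088, against -0.33, -0.24 and -0.49 in soy, so all samples with E2 were above all without. Stat5a also passed in casein-fed rats alone, at 1.32. Stat5a and Stat5b are close paralogs, and whether their probe sets cross-hybridise was not tested. The feedback inhibitor genes Socs2 (0.60, adjusted p = 0.086) and Cish (-0.41, adjusted p = 0.146), both targets of Stat5, did not pass and had opposite signs.

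In the list of IGF binding and release 1 of 15 measured genes rose and 1 fell, with a median of -0.11, and this count is near the 12.2% of all genes that passed. The metalloprotease gene Adamts1 rose by 0.62 ± 0.17 SE, and the serine protease gene Htra1, whose product can cut IGF binding proteins, fell by 0.70 (-0.70 ± 0.19 SE). Htra1 stood at -0.74, -0.70 and 0.19 in soy plus E2, against 0.49, 0.13 and 0.17 in soy, so soy plus E2 pool 3 again lay with the pools without E2. Pappa2, a protease of IGF binding proteins, did not pass (-0.32, adjusted p = 0.124).

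Of 26 insulin and IGF receptor signalling genes 1 rose and 2 fell, with a median of 0.0052, again near the 12.2% of all genes. The adaptor gene Irs2 rose by 0.64 ± 0.13 SE, the rodent adipocyte adaptor gene Irs3 fell by 1.15 (-1.15 ± 0.28 SE), and Grb10, an adaptor that inhibits both receptors, fell by 0.43 (-0.43 ± 0.096 SE). Irs3 stood at -0.44 and -0.55 in casein plus E2, against 0.42, 1.25 and 0.26 in casein. Soy plus E2 pools stood at -1.37, -0.41 and -0.14, against 1.11, 0.14 and 0.29 in soy, and no sample with E2 overlapped those without. The insulin receptor gene Insr (0.14), Irs1 (-0.25), Akt1 (0.23) and Akt2 (-0.46) did not pass.

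**Figure D5:**
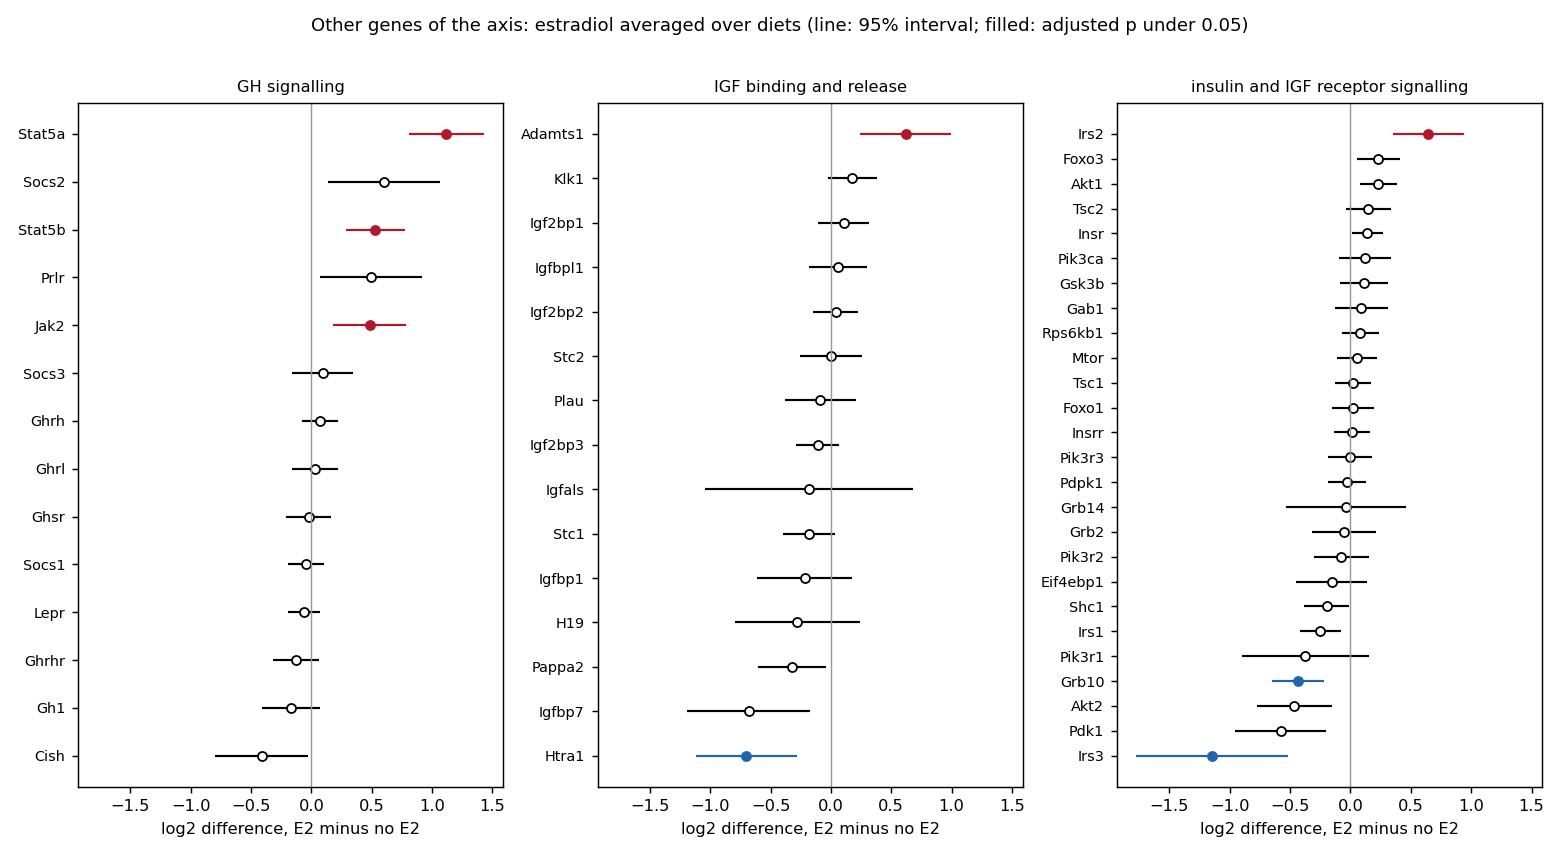
Log2 difference with E2 averaged over diets (x axis) of the other axis genes in 3 lists, with 95% intervals from limma. Filled markers passed at an adjusted p under 0.05, red for higher and blue for lower. Stat5a, at 1.12, is the highest and Irs3, at -1.15, the lowest of these genes.

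Over the 11 samples the genes most like each of the 4 moving members, by Pearson r across all genes, were as follows. For Igf1 they were Art3 (r = 0.979), the mast cell protease gene Cpa3 (0.976) and the cation transporter gene Slc22a3 (0.971). For Igfbp3 they were the mannosidase gene Man1a1 (0.977), Mphosph6 (0.97) and the chemokine gene Cxcl13 (0.966). For Ghr they were the glycerol-3-phosphate dehydrogenase gene Gpd1 (0.982), the peptidase gene Mme (0.981) and Dld (0.981). For Igfbp2 they were the basal keratin gene Krt5 (0.986), the laminin gene Lamb3 (0.971) and Reln (0.97). All 12 of these genes shared the sign of their member's E2 difference, which follows largely from choosing them by the highest r. The samples share the E2 grouping and the arrays, so these values describe likeness on these pools.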

How the data were processed

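Per the labels' protocols, total RNA of the glands was biotin-labelled for 12 Affymetrix rat arrays. The authors' deposited table holds 31099 probe sets, taken here as log2 because no probe set ranged over more than 9.85. GCOS is named in the submitters' processing notes. How values were summarised, normalized and logged is not stated in the sources used here. Every probe set has a median of 0 over arrays, which left no way to filter dim ones, and array medians ran from -0.0246 to 0.0112. One label field says hepatic, another mammary gland.

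By platform annotation 20826 probe sets carry 1 gene, 436 several and 9780 none, besides 57 controls, giving 14217 genes. The 4 groups (11 samples) were fitted in limma 3.58.1 (R 4.3.3) with 7 residual degrees of freedom, two-sided, with Benjamini-Hochberg adjustment over all genes and 95% intervals. The code was checked on simulated data. Members and lists were chosen with earlier results of these data known. Named genes were the members, genes of 3 pathway lists that passed for the E2 average, 3 liver markers and the 3 genes most like each member. Socs2, Cish, Pappa2, H19, Insr, Irs1, Akt1, Akt2, Igfals and Igfbp1 were picked later, with their values known. Alternatives were quantile normalization, single probe sets, 12 separate arrays, pool number as a block, the spike-in split as a term and leaving out each array.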

Additional observations from a re-analysis of the deposited data

Results flagged for a closer look

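For Igfbp5, as the mean of its 5 probe sets, the E2 samples lay above all casein samples in casein-fed rats and below all soy samples in soy-fed rats. Neither difference passed within its diet (limma adjusted p = 0.142 and 0.212), and groups did not overlap for 39.8% and 24.6% of all genes there. By probe set the pattern was less even: on 1396152_s_at the averaged casein plus E2 pools stood at 0, below casein pool 2 at 0.17, and 2 of the 5 probe sets were higher with E2 on soy, by 0.055 and 0.22, without passing. The E2 difference in soy-fed minus that in casein-fed rats was -0.81 ± 0.21 SE, and this difference did not pass in limma (adjusted p = 0.544, between 0.306 and 0.958 over the alternatives). It was -0.59 without casein plus E2 pool 1. No cause was tested.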

How the results depend on the processing

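Igf1, Igfbp2, Igfbp3 and Ghr kept their direction for the E2 average and within each diet under all alternatives run, single probe sets and left-out arrays included. For the E2 average 1741 genes passed, with 2641 over 12 separate arrays and 313 to 2334 with an array left out, and 4 members passed, with 0 to 4 when an array was left out. With E2 on casein 346 genes passed, with 628 after quantile normalization, 1369 over 12 arrays, 821 with the replicate block and 3 to 590 with an array left out. Members passing there were 0, with 1 (Igf1) under each of the first 3 settings and 0 to 2 with an array left out. With E2 on soy 31 genes passed, with 234 after quantile normalization, 226 over 12 arrays, 73 with the spike-in split and 0 to 760 with an array left out. Members passing there were 0, with 1 (Igfbp2) after quantile normalization and 0 to 3 with an array left out. For the interaction 0 genes passed, with 4 over 12 arrays, 1 with the replicate block and 1 with the spike-in split. For soy without E2 0 passed, with 1 over single probe sets and 0 to 327 with an array left out. For soy with E2 1 passed, with 6 after quantile normalization, 13 over 12 arrays, 3 with the replicate block, 4 over single probe sets and 0 to 3 with an array left out. Pool numbers showed no clear pairing of the samples. Same-numbered pools of different groups correlated between -0.42 and 0.46 (median 0.0307, against 0.0152 for other numbers). Of 12 arrays 2 correlated best with their own number. With 3 pools a group, and casein plus E2 pools 2 and 3 nearly 1 array, this cannot settle whether pools were paired.

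Small differences changed sign, and the cause was not tested. For the E2 average, Igf2 was 0.018 with the spike-in split, 0.050 and 0.15 on 2 probe sets and -0.16 to 0.087 with an array left out. Igfbp4 was 0.042 with the spike-in split and -0.16 to 0.057 with an array left out, and Igfbp5 was -0.17 and -0.16 on 2 probe sets and -0.046 to 0.17 with an array left out. On casein, Igf2 was 0.043 and 0.070 on 2 probe sets and -0.48 to 0.0075 with an array left out, Igf1r was -0.0048 on 1 probe set, and Igfbp4 was 0.13 with the spike-in split and -0.27 to 0.16 with an array left out. On soy, Igf2r was 0.0081 on 1 probe set and -0.17 to 0.072 with an array left out, Igfbp4 was -0.14 to 0.12 with an array left out, Igfbp5 was 0.055 and 0.22 on 2 probe sets, and Igfbp6 was 0.025 on 1. For the interaction and the soy comparisons, only members that passed for the E2 average or had an unadjusted p under 0.05 there were followed. Sign changes of other members are not listed, such as Igf1r in the interaction (-0.12 on 1368123_at, 0.011 by gene). In the interaction, Igf1 was -0.27 to 0.65 with an array left out, and Igfbp3 was 0.071 after quantile normalization, 0.22 with the spike-in split, 0.26 on 1 probe set and -0.68 to 0.43 with an array left out. For soy without E2, Ghr was -0.53 to 0.016 with an array left out. For soy with E2, Igf1 was -0.060 on 1 probe set and -0.41 to 0.51 with an array left out, and Igfbp3 was -0.19 to 0.93. There Igfbp2 was 0.030 after quantile normalization, 0.071 over 12 arrays, 0.071 with the replicate block, 0.081 with the spike-in split and -0.23 to 0.22 with an array left out. The number of arrays limits precision, and centred values give no signal over background.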

Other observations

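Among the 6 members that did not pass with E2, the most alike genes over the 11 samples had lower correlations than those of Igf1, Igfbp2, Igfbp3 and Ghr. Members were divided here by an E2 difference that is part of the same samples, so the correlations cannot be compared apart from it. For Igf2 the most alike gene was Celf4 (r = 0.958), for Igf2r Pir (0.956), for Igfbp4 Ccdc3 (0.963), for Igf1r Brwd1 (0.94), for Igfbp6 Dvl2 (0.931) and for Igfbp5 Cabs1 (0.89).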
